A study of Rattus norvegicus with 77 samples.

Results

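Rps6ka5, Wdr7, Spsb3, Ctxn1, Erc1, Ptdss1 and Slc10a7 are 7 transcripts of rat sperm that were chosen because their level differed between HD and water rats at the end of exposure and did not differ after recovery. A gene was measured by the probe sets (groups of probes against 1 transcript) that carried it as their only gene symbol, and where there were several, by the brightest. The 7 genes had 8 such probe sets, of 29214 on the array and 15310 with 1 gene symbol, and Slc10a7 had 2 of them. The choice used the values of all 4 groups, so the group values of these genes are given as a description, with no test.

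Sperm RNA of 77 adult male Fischer 344 rats was hybridized to Affymetrix rat arrays that cover whole transcripts, with a separate array for each rat. The groups were HD (19 rats), given 2,5-hexanedione at 0.33% in the drinking water for 3 months and killed then, water (20 rats), given water alone for the same time, HD-recovery (20 rats), exposed in the same way and then left for 3 more months without HD, and water-recovery (18 rats), the controls of that age. HD is a toxicant of Sertoli cells, the somatic cells that carry the developing sperm, and cross-links their microtubules. The sperm were released from the cauda epididymides and incubated in a buffer that lyses somatic cells. The study reports that it checked purity: somatic cells were not seen by microscopy, and gels of the RNA lacked the bands of ribosomes. These checks are not given for single arrays. A value is therefore taken here as RNA from sperm plus that from any other cells still present. In such bulk samples, fewer cells of a type and less RNA per cell cannot be told apart. The recovery groups were older than the others, and age, time and any separate handling cannot be told apart between the 2 pairs of groups.

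Mature sperm are almost silent in transcription, and most of the RNA they carry was made earlier, in the testis. The 7 genes belong to no 1 pathway. Rps6ka5 encodes a nuclear kinase that ERK and p38 activate and that phosphorylates the transcription factors CREB and ATF1 and a histone. Wdr7 encodes a subunit of rabconnectin-3, which helps to assemble the proton pump that acidifies vesicles, such as the acrosome of sperm. Spsb3 encodes a substrate receptor of a ubiquitin ligase, joined to it by a SOCS box, and in human cells it takes the DNA sensor cGAS to degradation. Ctxn1 encodes cortexin, a small membrane protein first found in the cortex of the rat brain. Erc1 encodes ELKS, a scaffold of the presynaptic active zone and of the cell cortex that also binds the kinase complex of NF-kappaB signalling. Ptdss1 encodes an enzyme that makes phosphatidylserine, a lipid kept on the inner face of the plasma membrane, from phosphatidylcholine. Slc10a7 is a member of the bile acid transporter family that is not known to carry bile acids, and human cells that lack it handle calcium and glycosylation abnormally.

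The 250 bases before the start site were read for 6 of the 7 genes from RefSeq (build GRCr8), and 3 are shown because they lie before genes of different behaviour below: Rps6ka5, whose product acts on CREB, and Ctxn1 and Erc1, which varied together. Capitals mark TGACG on either strand, the core of the cAMP response element, to which CREB can bind.
Rps6ka5, chr6:125735756-125736005, minus strand: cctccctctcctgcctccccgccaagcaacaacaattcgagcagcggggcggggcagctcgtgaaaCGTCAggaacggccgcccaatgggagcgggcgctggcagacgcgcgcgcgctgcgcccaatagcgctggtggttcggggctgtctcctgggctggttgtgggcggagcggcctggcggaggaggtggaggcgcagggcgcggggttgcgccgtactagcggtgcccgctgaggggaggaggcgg
Ctxn1, chr12:7409920-7410169, minus strand: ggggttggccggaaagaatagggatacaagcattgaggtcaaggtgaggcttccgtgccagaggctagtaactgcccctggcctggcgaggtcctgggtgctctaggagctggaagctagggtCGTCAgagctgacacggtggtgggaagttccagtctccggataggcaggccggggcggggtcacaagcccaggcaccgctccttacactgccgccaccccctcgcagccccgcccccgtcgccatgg
Erc1, chr4:154727988-154728237, minus strand: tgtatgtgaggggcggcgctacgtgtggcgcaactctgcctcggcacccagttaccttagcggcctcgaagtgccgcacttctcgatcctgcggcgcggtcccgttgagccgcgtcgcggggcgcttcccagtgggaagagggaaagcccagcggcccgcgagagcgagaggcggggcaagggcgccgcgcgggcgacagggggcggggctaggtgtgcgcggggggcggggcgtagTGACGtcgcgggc

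TGACG occurred in 4 of the 6 windows, those of Rps6ka5, Wdr7, Ctxn1 and Erc1, while 18.2% of the 33469 windows of all genes held it. The 3 windows shown are among these 4. The window of Slc10a7, the gene that varied most closely with Erc1, held none. The full palindrome TGACGTCA, which contains TGACG, was in none of the 6, and in 1.59% of all windows. The GC box GGGCGG was found in 3 of the 6 (Rps6ka5, Ctxn1 and Erc1) and in 30.5% of all windows, the CCAAT box in 2 (Rps6ka5 and Spsb3) and in 34.0%, and TATAAA in none and in 12.9%. The share of G and C lay between 57.2% (Wdr7) and 73.2% (Erc1), against a median of 51.2% over all windows. These matches describe the letters only.

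Arrays of 1 group differed widely. Array medians lay between 6.51 and 6.78 over the 77 arrays on the log2 scale, and 41.9% of the variance within groups lay on 1 component. By a rule on the correlation with the rest of the group, 10 arrays stood apart: HD replicates 3, 4, 5 and 14, water replicate 20, HD-recovery replicates 2, 9 and 16, and water-recovery replicates 12 and 15. They were kept, and some results are given also without them. The calls of single marker genes, of HD-recovery against HD and of Rims2 are not given without all 10. The defining sperm transcripts Prm1, Odf1 and Smcp had mean log2 intensities between 12.7 and 14.1 in each of the 4 groups. The other 3 defining sperm transcripts were dimmer, with means of 10.73 in HD and 10.04 in water arrays for Tnp1, 10.29 and 9.51 for Akap4, and 9.59 and 9.22 for Prm2. Over the whole array, 138 probe sets differed between HD and water (limma, q under 0.05), 133 of them lower in HD, and without the 10 arrays 8818 differed, 3727 of them lower. The study describes most of its altered transcripts as elevated in HD, the opposite direction. It also ran qRT-PCR on other rats after 3 months of HD, against rats before exposure. Each transcript past p under 0.05 by its t-test there, such as Clu, Ift81 and Tbc1d5, had the direction of the study's arrays. Some that did not pass, such as Lyz2, Dcn and Gas2, had the direction of the labels here. Lyz2 was lower than before exposure at each time point and passed after 3 months of recovery (ANOVA with Dunnett's correction, p under 0.05). The other transcripts past that test at any time point had the direction of the study's arrays. None of the genes chosen here was on that panel. Which direction is right was not settled here, so every sign between HD and water below holds only as the arrays are labelled.

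All 7 genes had their lowest group mean in arrays labelled HD, and the HD minus water difference ran from -0.74 (Slc10a7) to -0.17 (Ptdss1) on the log2 scale, with a median of -0.48. The study lists all of them but Ptdss1 as altered and gives them, too, the opposite direction. The median difference over all 29214 probe sets was 0.01. Of the 7 genes, 6 were among the 138 probe sets altered, and Ptdss1 was not, beside 0.472% of the array. This is what chose them, and nothing is read from it. The rule gives no threshold, so no value lies just inside or outside one.

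Rps6ka5, the kinase upstream of CREB, had the most water arrays above the highest HD array. Its log2 intensity had a lowest value of 5.79, a median of 6.12 and a highest of 6.35 in HD arrays, and 6.08, 6.41 and 6.68 in water arrays. All 19 HD arrays lay below the water median, and 15 of the 20 water arrays lay above the highest HD array. The means were 6.11 ± 0.14 (SD, n = 19) in HD and 6.42 ± 0.18 (SD, n = 20) in water, a difference of -0.31 (SE 0.05, 95% interval -0.42 to -0.21). After recovery the lowest, median and highest values were 5.99, 6.44 and 6.64 in HD-recovery arrays and 6.04, 6.37 and 6.71 in water-recovery arrays. These groups covered almost the same range, and their difference was 0.03 (SE 0.05, 95% interval -0.08 to 0.14). With mean intensities between 6.11 and 6.42, Rps6ka5 lay below the array medians, and no detection calls were used here.

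Wdr7, the proton pump assembly factor, had a lowest value of 6.77, a median of 7.14 and a highest of 7.89 in HD arrays, and 7.09, 7.73 and 8.26 in water arrays. The median of water was above 18 of the 19 HD arrays, and 8 HD arrays lay below every water array. The difference was -0.48 (SE 0.10, 95% interval -0.67 to -0.29). In HD-recovery arrays the values were 7.12, 7.70 and 8.13, and in water-recovery arrays 7.06, 7.62 and 8.11. The recovery groups covered almost the same range, with a difference of 0.05 (SE 0.09, 95% interval -0.12 to 0.23).

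Spsb3, the ubiquitin ligase receptor, was the only 1 of the 7 in which no HD array fell below the lowest water array. Its lowest, median and highest values were 7.55, 7.69 and 8.23 in HD arrays and 7.40, 8.13 and 8.52 in water arrays, and the water median was above 17 of the 19 HD arrays. The difference was -0.33 (SE 0.08, 95% interval -0.49 to -0.18). The values were 7.64, 8.06 and 8.63 in HD-recovery arrays and 7.71, 8.00 and 8.34 in water-recovery arrays. That difference, 0.08 (SE 0.07, 95% interval -0.05 to 0.22), was the highest of the 7 after recovery.

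Ctxn1, the cortexin gene, had values of 7.83, 8.03 and 8.85 in HD arrays and of 8.20, 8.86 and 9.33 in water arrays (lowest, median and highest). All 19 HD arrays lay below the water median and 11 lay below every water array, the most for any of the 7 genes. The difference was -0.64 (SE 0.10, 95% interval -0.84 to -0.43). After recovery the values were 7.97, 8.70 and 9.23 in HD-recovery arrays and 8.11, 8.73 and 9.36 in water-recovery arrays. The means of these 2 groups differed by -0.05 (SE 0.11, 95% interval -0.27 to 0.17), and 10 of the 20 HD-recovery arrays lay below the water-recovery median.

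Erc1, the active zone and cortex scaffold, spread more widely within groups, with an SD between 0.33 and 0.50. Its lowest, median and highest values were 6.78, 7.16 and 8.22 in HD arrays and 7.05, 8.10 and 8.75 in water arrays. The difference was -0.70 (SE 0.14, 95% interval -0.98 to -0.43), and the water median was above 18 of the 19 HD arrays. The values were 6.91, 7.88 and 8.38 in HD-recovery arrays and 7.27, 7.88 and 8.52 in water-recovery arrays, so that the medians agreed to 2 decimals. The difference after recovery was -0.01 (SE 0.12, 95% interval -0.26 to 0.23).

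Ptdss1, the phosphatidylserine synthase, had the narrowest spread, with an SD between 0.12 and 0.14 in each group, and the smallest difference. Its lowest, median and highest values were 6.90, 7.11 and 7.50 in HD arrays and 7.08, 7.26 and 7.56 in water arrays. The difference was -0.17 (SE 0.05, 95% interval -0.27 to -0.08). The water median was above 16 of the 19 HD arrays and below 3. The values were 7.13, 7.37 and 7.51 in HD-recovery arrays and 7.05, 7.30 and 7.59 in water-recovery arrays, with a difference of 0.05 (SE 0.04, 95% interval -0.04 to 0.14). Ptdss1 was the only 1 of the 7 whose highest group mean was that of HD-recovery, and in the other 6 it was that of water.

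Slc10a7 had the largest difference of the 7. On its brighter probe set, the lowest, median and highest values were 6.85, 7.26 and 8.26 in HD arrays and 7.01, 8.00 and 8.69 in water arrays. The HD minus water difference was -0.74 (SE 0.12, 95% interval -0.99 to -0.49) and the water median was above 18 of the 19 HD arrays. After recovery the values were 6.99, 7.91 and 8.63 in HD-recovery arrays and 7.40, 7.91 and 9.10 in water-recovery arrays, a difference of -0.07 (SE 0.15, 95% interval -0.37 to 0.24). The second probe set was dimmer, at 6.52 ± 0.48 (SD, n = 19) in HD and 7.15 ± 0.54 (SD, n = 20) in water arrays, and it differed by -0.63 (SE 0.16) and, after recovery, by -0.07. The 2 probe sets followed each other over the 77 arrays after group means were removed (r = 0.92, and 0.88 without the arrays that stood apart).

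**Figure D1:**
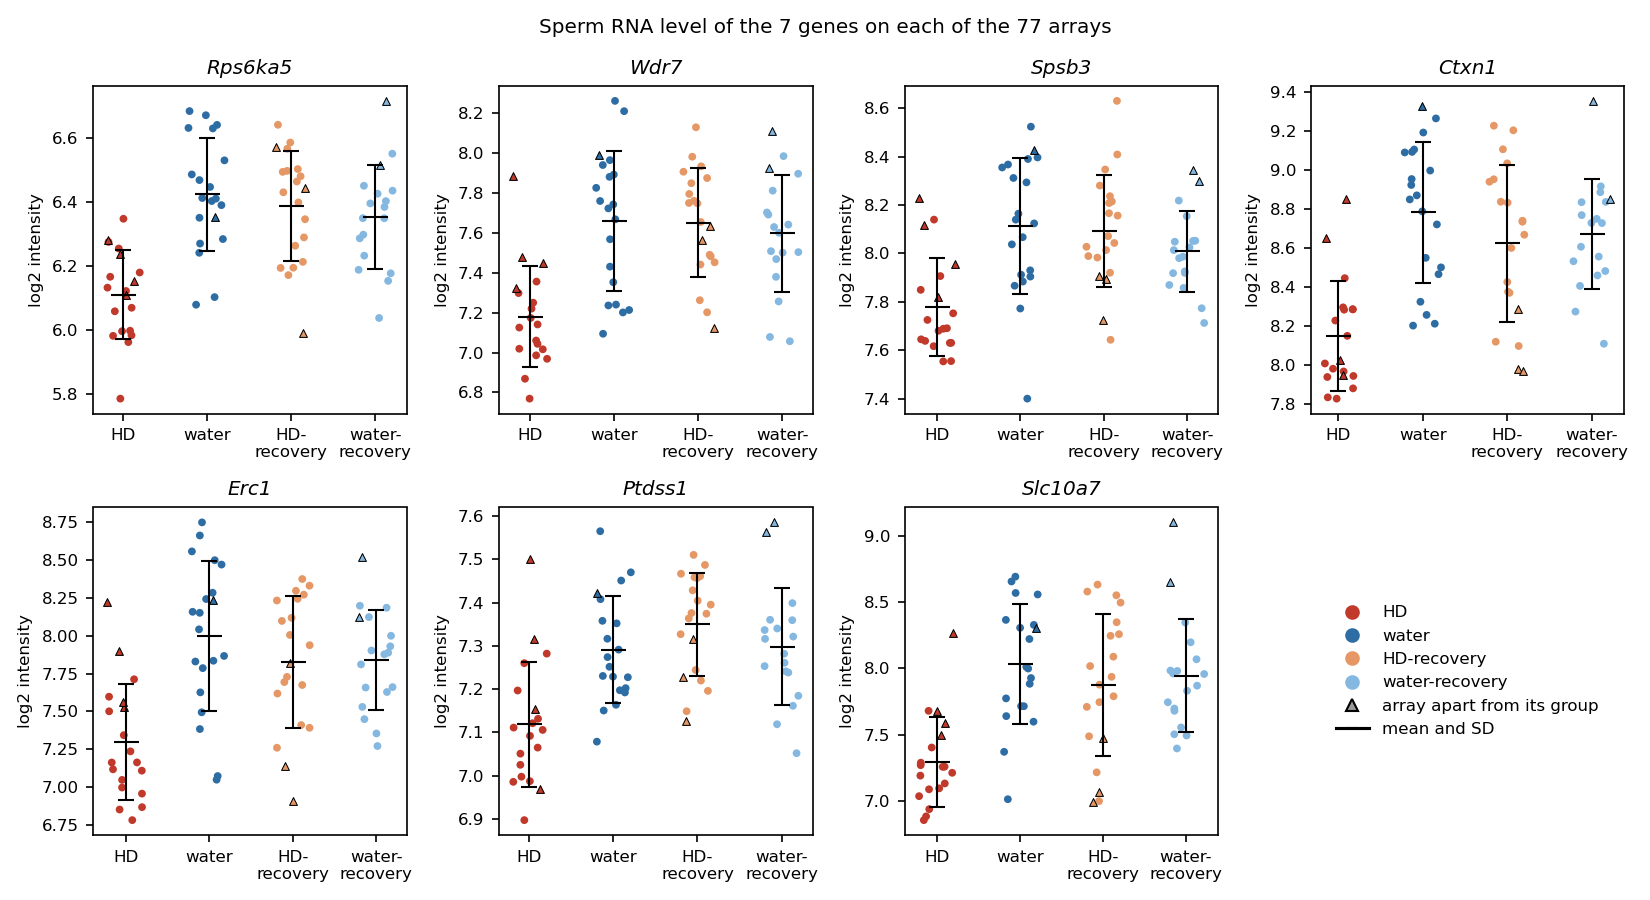
Log2 intensity of each of the 7 genes on each array, by group, with the group mean and SD as a black bar and arrays that stood apart from their group as triangles. The HD mean is the lowest in each panel, and the HD-recovery and water-recovery arrays overlap.

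HD replicate 14, which stood apart, was the highest HD array for 5 genes (Wdr7, Spsb3, Ctxn1, Erc1 and Slc10a7) and lay above the HD median for all 7. Among HD-recovery arrays, replicate 9 was the lowest for 4 genes and replicate 2 for 2, and in water-recovery arrays replicates 12 and 15 were the highest for 3 and 4 genes. Without the 10 arrays that stood apart, the HD minus water differences were larger for each gene: -0.85 for Slc10a7, -0.82 for Erc1, -0.67 for Ctxn1, -0.56 for Wdr7, -0.38 for Spsb3, -0.34 for Rps6ka5 and -0.20 for Ptdss1 (15 HD and 19 water arrays). The HD-recovery minus water-recovery differences then ran from 0.08 to 0.17 and were positive for each of the 7 genes (17 and 16 arrays), so those of Ctxn1, Erc1 and Slc10a7 turned from slightly negative to positive. For Spsb3 the difference was then 0.17 (95% interval 0.04 to 0.30) and for Ptdss1 0.11 (95% interval 0.03 to 0.19), while the median over all probe sets was -0.04.

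With all arrays, the recovery difference had a median of 0.03 over the 7 genes and was widest in its interval for Slc10a7 (-0.37 to 0.24). Small differences here are part of what chose the genes, and they do not show that the groups were alike. Over the whole array, 0 probe sets were altered after recovery (limma, q under 0.05, 0% of the array), with 1318 at an unadjusted p under 0.05, or 4.51%. The count of 0 at q under 0.05 became 3834 without the 10 arrays that stood apart, 527 with weighted arrays and 622 with the mean of leukocyte markers as a covariate. Between the control groups, the water-recovery minus water difference lay between -0.16 and 0.01. The HD-recovery minus HD difference ran from 0.23 to 0.58, with a median of 0.47, and 3 of the 7 (Rps6ka5, Wdr7 and Ptdss1) were among the 9 probe sets called there (0.0308% of the array). No probe set was called between the controls (limma, q under 0.05, 0% of the array, with 1905 at an unadjusted p under 0.05). These comparisons share their arrays with those that chose the genes, so nothing is read from the 3 of the 7 called. Both comparisons follow the labels. If the labels of HD and water were exchanged, the first would be water-recovery minus HD and the second HD-recovery minus water.

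**Figure D2:**
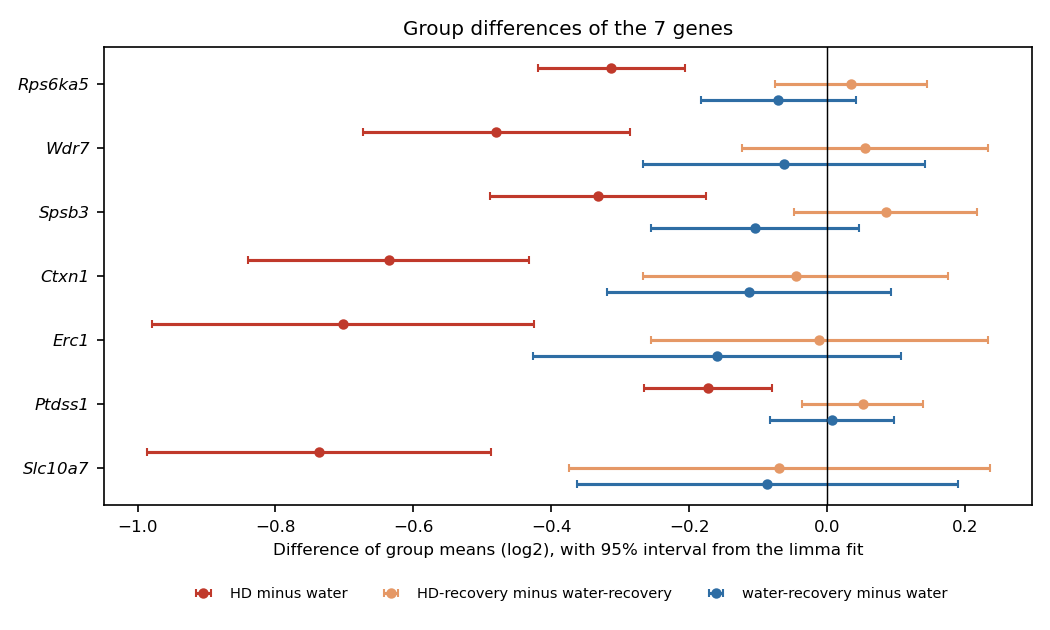
Differences of group means (log2, points) with 95% intervals (bars) for HD minus water, HD-recovery minus water-recovery and water-recovery minus water. The HD minus water points lie between -0.74 and -0.17, and the other points lie between -0.16 and 0.08.

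The HD effect at the end of exposure minus that after recovery had a median of -0.53 over the 7 genes (-0.69 to -0.22), while 0 of 29214 probe sets passed q under 0.05 for this difference of effects (smallest q 0.46 from limma, 0% of the array, and 987 or 3.38% at an unadjusted p under 0.05). The count of 0 became 16591 without the 10 arrays that stood apart, 9833 with weighted arrays and 356 with the first component as a covariate. Over the 138 probe sets altered at the end of exposure, to which 6 of the genes belong, the median was -0.51 for HD minus water and -0.06 for HD-recovery minus water-recovery. After recovery 111 of the 138 lay below 0, and the median over all 29214 probe sets was -0.005. Ctxn1, Erc1 and Slc10a7 were among the 111, with intervals that included 0, and were positive without the 10 arrays that stood apart.

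**Figure D3:**
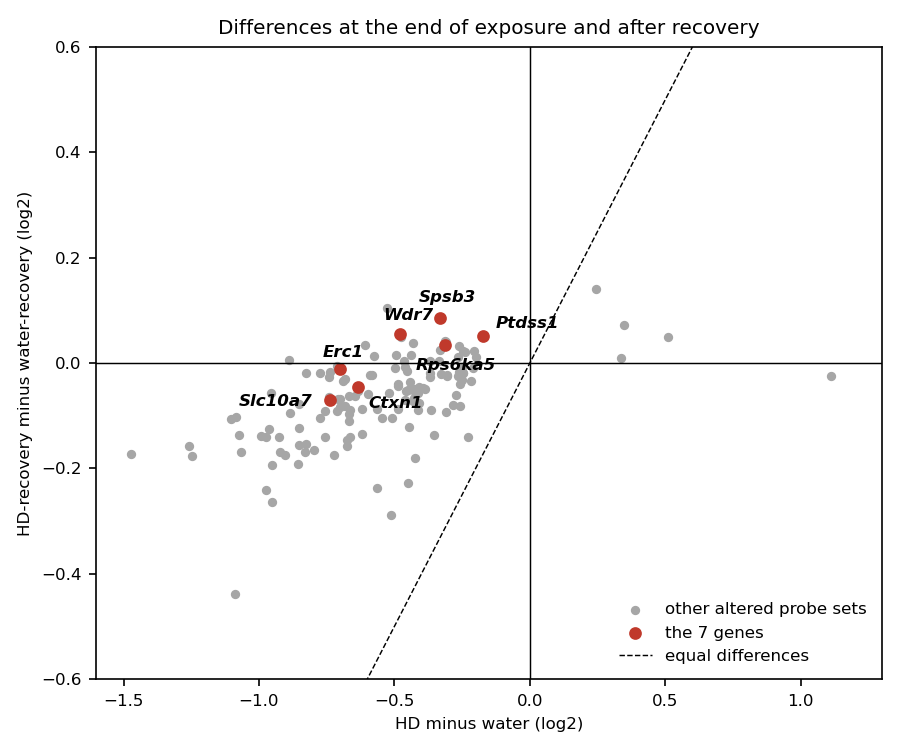
HD minus water difference (x, log2) against HD-recovery minus water-recovery difference (y, log2) for the 138 altered probe sets and Ptdss1, with the 7 genes in red and a dashed line where both would be equal. The 7 genes lie left of 0 and between -0.07 and 0.08 on the y axis, among the others or, for Spsb3 and Ptdss1, at their upper edge.

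Within groups the genes did not vary as 1 block. After each group mean was removed, the 21 pairs had Pearson's r between 0.29 and 0.89, with a median of 0.57 over the 77 arrays (0.51 without the arrays that stood apart). In single groups the median of the 21 pairs was 0.39 in HD, 0.65 in water, 0.59 in HD-recovery and 0.68 in water-recovery arrays. The values that follow are over the 77 arrays unless a group is named. Slc10a7, Erc1, Wdr7 and Ctxn1 varied most closely together, with 6 pairs between 0.74 and 0.89, and were picked out after their values were seen. Erc1 and Slc10a7 were the closest pair. Spsb3 followed these 4 less closely (r from 0.62 to 0.72). Its r with them was 0.32 to 0.52 in HD, 0.61 to 0.75 in water, 0.69 to 0.86 in HD-recovery and 0.70 to 0.81 in water-recovery arrays. The pairs of Rps6ka5 ran from 0.29 to 0.52 and those of Ptdss1 from 0.29 to 0.57. For comparison, the median over the 9453 pairs of the 138 altered probe sets was 0.69. All arrays share their processing and the values that other cells may add, so these are descriptions.

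**Figure D4:**
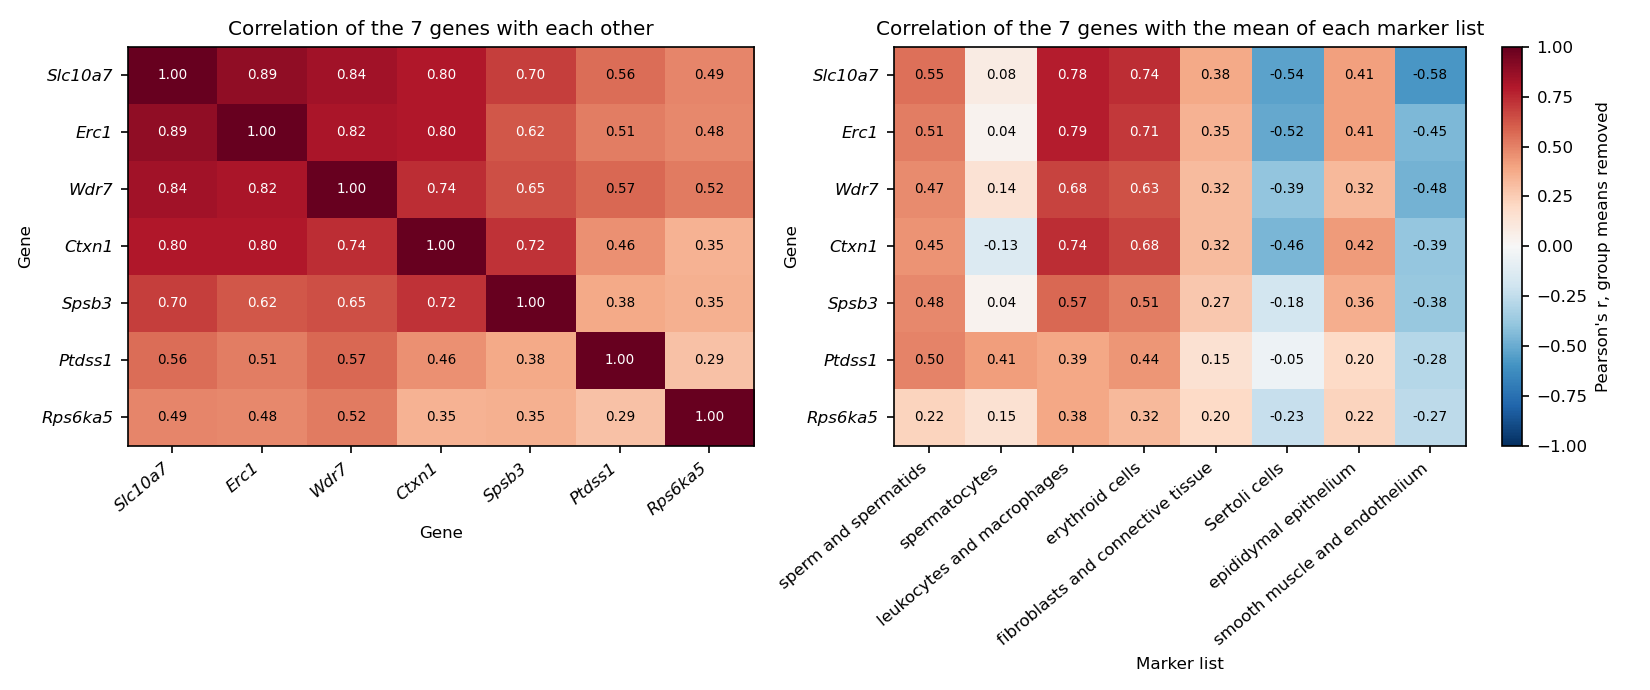
Pearson's r over the 77 arrays after group means were removed, among the 7 genes (left) and between each gene and the mean of each marker list (right), on a colour scale from -1 to 1. Slc10a7, Erc1, Wdr7 and Ctxn1 form the block with r from 0.74 to 0.89, and the leukocyte column runs from 0.38 for Rps6ka5 to 0.79 for Erc1.

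Some marker lists of other cell types also differed in mean between HD and water arrays, and others did so little. The mean of 33 measured leukocyte and macrophage markers was 7.31 ± 0.25 in HD arrays (SD, n = 19, range 7.03 to 7.93) and 7.61 ± 0.22 in water arrays (SD, n = 20, range 7.17 to 7.96), and the median of water was above 16 of the 19 HD arrays. After recovery it was 7.58 ± 0.31 in HD-recovery (n = 20) and 7.67 ± 0.31 in water-recovery arrays (n = 18). Of the 33 markers, 6 were lower in HD than in water (limma, q under 0.05, background 0.455% lower) and none was higher, and the 6 were Cd4, Cx3cr1, Ccr2, Lyz2, Fcer1g and Gimap4. Ptprc, the pan-leukocyte antigen, had mean log2 intensities of 7.66 in HD, 8.15 in water, 8.09 in HD-recovery and 8.21 in water-recovery arrays, so in each group it lay above the highest array median of 6.78. The 5 measured erythroid markers averaged 7.15 in HD, 7.51 in water, 7.56 in HD-recovery and 7.66 in water-recovery arrays, and 1 of them, Ahsp, was lower in HD. The 10 Sertoli cell markers averaged 6.91, 6.75, 6.75 and 6.78 in the same order, and all 19 HD arrays lay at or above the water median. Of the Sertoli markers, only Clu was altered, higher by 1.11 in arrays labelled HD (background 0.0171% higher). The median difference of the 10 markers was 0.04, so the shift of their mean rests largely on Clu. The 20 sperm and spermatid markers averaged 10.22 in HD, 10.04 in water, 10.09 in HD-recovery and 9.84 in water-recovery arrays, and 1 of them, Odf1, was lower in HD. Of 11 fibroblast and connective tissue markers, Dcn was lower in HD, and the mean was 7.47 in HD, 7.74 in water, 7.65 in HD-recovery and 7.80 in water-recovery arrays, so that 16 of the 20 HD-recovery arrays still lay below the water-recovery median. On its arrays, the study gives Clu, Dcn and the altered leukocyte markers the opposite direction. Its qRT-PCR, in other rats after 3 months of HD, gives Clu the opposite direction too. For Lyz2 and Dcn that qRT-PCR has the same direction as here, though neither passed p under 0.05 by its t-test. Lyz2 passed only after 3 months of recovery, by ANOVA with Dunnett's correction. The 16 epididymal epithelium markers averaged 7.10 in HD, 7.18 in water, 7.19 in HD-recovery and 7.11 in water-recovery arrays, the 7 smooth muscle and endothelium markers 6.83, 6.83, 6.79 and 6.80 in the same order, and the 10 spermatocyte markers 6.33, 6.22, 6.24 and 6.25, and none of these 3 lists had an altered marker.

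Within groups, r with the leukocyte mean was 0.79 for Erc1, 0.78 for Slc10a7, 0.74 for Ctxn1, 0.68 for Wdr7, 0.57 for Spsb3, 0.39 for Ptdss1 and 0.38 for Rps6ka5 (0.32 to 0.74 without the arrays that stood apart). The r with the erythroid mean ran from 0.32 for Rps6ka5 to 0.74 for Slc10a7, and with the sperm mean from 0.22 for Rps6ka5 to 0.55 for Slc10a7. It was negative with the Sertoli mean for each gene (-0.54 to -0.05).

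The differences were also fitted with the leukocyte mean of each array as a covariate, a choice made after seeing the data. The HD minus water difference was then -0.24 for Rps6ka5 (95% interval -0.36 to -0.12), 76.2% of the value without it. Ptdss1 kept 65.7% (-0.11, 95% interval -0.22 to -0.01) and Ctxn1 52.2% (-0.33, 95% interval -0.51 to -0.16). The others kept between 32.1% (Erc1, -0.23) and 49.3% (Spsb3, -0.16), with -0.20 for Wdr7 and -0.29 for Slc10a7. All 7 stayed negative. The covariate itself was lower in HD than in water arrays, so the fit does not separate the part of other cells from that of exposure, and that part was not tested. After recovery the differences with the covariate lay between 0.03 and 0.12, with the highest for Spsb3 (95% interval 0.02 to 0.23).

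**Figure D5:**
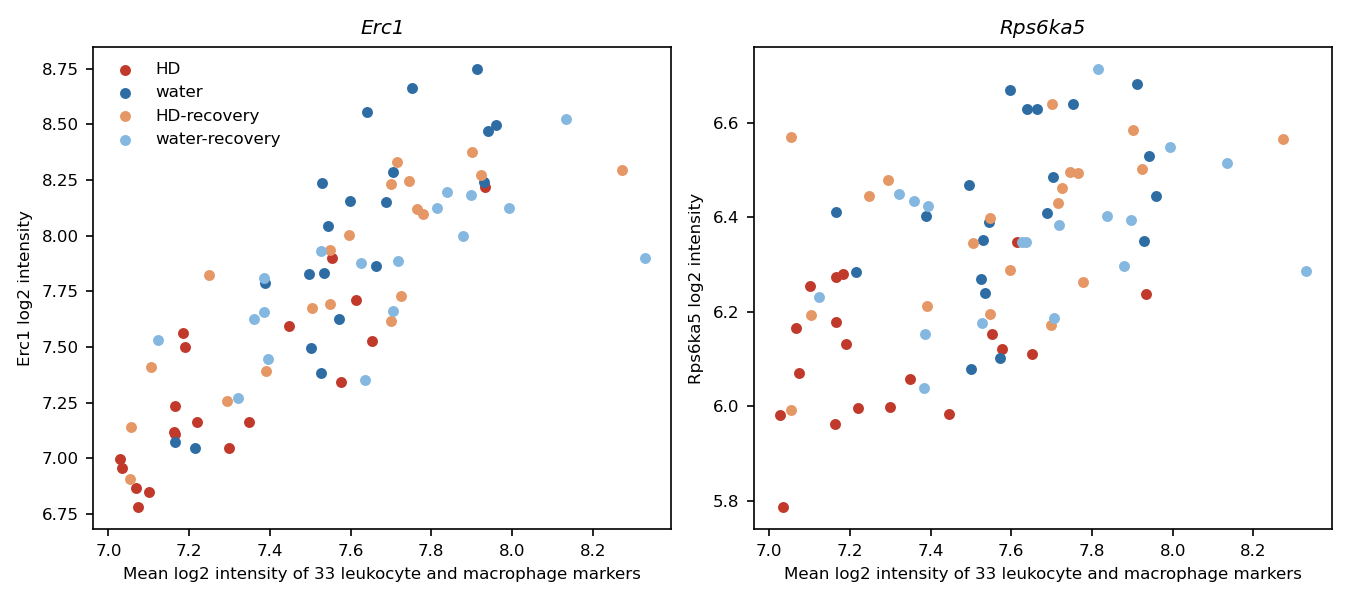
Log2 intensity of Erc1 (left) and Rps6ka5 (right) against the mean log2 intensity of 33 leukocyte and macrophage markers, 1 point per array, coloured by group. After group means were removed, r with the markers was 0.79 for Erc1 and 0.38 for Rps6ka5.

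Between HD and water, partners and paralogs of the 7 genes passed the test about as rarely as probe sets of the whole array. Nothing is read from their count. At that rate, any 1 of the lists below would mostly hold none that passed, so an empty list says nothing about partners. Of 120 measured genes of 7 pathway lists (142 listed), 1 was lower in HD than in water and none was higher (limma, q under 0.05, beside 0.455% lower and 0.0171% higher over the array). At an unadjusted p under 0.05, 9 were lower and 3 higher, beside 4.91% and 3.40% of the array. The median difference of the 120 was -0.02. None was altered after recovery, where 3 had an unadjusted p under 0.05. None differed between the 2 HD effects (limma, q under 0.05), where 5 had an unadjusted p under 0.05 (Rims2, Rab6b and Atp6ap1 with a lower HD effect at the end of exposure, Ptdss2 and Pcyt2 with a higher one). These counts rest on the arrays that stood apart: without those 10 arrays, 43 of the 120 were altered in HD against water (10 higher, 33 lower), 18 after recovery, each of them higher, and 72 differed between the HD effects. The whole array moved as well. Of its 29214 probe sets, 8818 were then altered in HD against water (5091 higher, 3727 lower). After recovery 3834 were altered (1912 higher, 1922 lower), and 16591 differed between the HD effects. Nothing is read from these list counts either.

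The 1 gene that passed was Rims2, an active zone protein that binds ELKS, in the list around Erc1. Its lowest, median and highest log2 intensities were 6.97, 7.18 and 7.57 in HD arrays, and 7.13, 7.36 and 7.75 in water arrays. The median of water was above 17 of the 19 HD arrays. The difference was -0.25 (SE 0.06, q = 0.043 from limma). It lost the call in 25 of the 39 fits that left out 1 array, with q between 0.0085 and 0.084, and its difference stayed between -0.27 and -0.23. The study lists Rims2 among its altered transcripts with the opposite direction, so its sign, too, holds only as labelled. After recovery Rims2 differed by -0.01 (SE 0.06). The paralog Erc2 differed by -0.03 (SE 0.05, q = 0.98) between HD and water.

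Around Rps6ka5, none of the 20 measured kinases and CREB-related genes passed. The closest kinase, Rps6ka4, differed by 0.00 (SE 0.05). Creb1, whose product the kinase phosphorylates, differed by -0.20 (SE 0.09, q = 0.47), and Dusp1, an immediate early phosphatase of MAP kinases, by -0.45 (SE 0.15, q = 0.19). Around Wdr7, none of 19 measured genes of the proton pump and of partners passed in HD minus water. The closest listed partners, Dmxl1 and Dmxl2, had no probe set with them as the only gene symbol and were not measured. Rogdi, a partner of rabconnectin-3, differed by 0.09 (SE 0.12), and after recovery by 0.26 (SE 0.09, q = 0.74), and the pump subunits Atp6v1d and Atp6v1f by 0.41 (SE 0.17) and 0.24 (SE 0.11) after recovery, all 3 at an unadjusted p under 0.05 and none past q under 0.05.

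Around Spsb3, none of 12 SOCS-box ligase genes passed. Spsb1, Spsb2 and Spsb4 differed by 0.07 (SE 0.06), 0.06 (SE 0.07) and -0.05 (SE 0.06), and the adaptors Elob and Eloc and the scaffold Cul5 by -0.15 (SE 0.07), 0.01 (SE 0.13) and 0.03 (SE 0.10). The 1 other cortexin measured, Ctxn3, differed by -0.02 (SE 0.10). Ptdss2, which makes phosphatidylserine from phosphatidylethanolamine, had a difference of the opposite sign to Ptdss1, 0.18 (SE 0.07, q = 0.45), and none of the 23 measured genes of that list passed. The 6 other members of the SLC10 family lay between -0.04 and 0.08. Stim1, the calcium sensor of the endoplasmic reticulum, differed by -0.14 (SE 0.05, q = 0.23), and none of the 21 genes of the list around Slc10a7 passed.

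For each gene the 3 transcripts that followed it most closely within groups were named by their r over the 77 arrays. For Slc10a7 they were Cct6b, a testis form of a chaperonin subunit (r = 0.95), Ppa1, an inorganic pyrophosphatase (r = 0.95), and Lrrc69 (r = 0.94). For Erc1 they were Ubn2, Abi2, a regulator of actin branching, and Cep112, a centrosome protein (r = 0.93 each). For Wdr7 they were Rmnd1, needed for mitochondrial translation (r = 0.88), Magi1, a junction scaffold, and Sox6, a transcription factor (both 0.87). For Ctxn1 they were the phosphatases Phospho1 (r = 0.87) and Mtm1, which acts on phosphoinositides (r = 0.86), and Zfp385a (r = 0.85).

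The other 3 genes had looser neighbours. Spsb3 was followed by Rims2, Osgin1 and Thap7 (r = 0.78 each), so that the list gene that passed around Erc1 was closest to Spsb3. Rps6ka5 was followed by Ppp1r9a, which binds actin (r = 0.60), Gbe1, the glycogen branching enzyme (r = 0.59), and Lrrc40 (r = 0.58). Ptdss1 was followed by Uqcc2, an assembly factor of the respiratory chain (r = 0.69), Gdpd1 and Ttbk2 (both 0.68), and these fell to 0.49 to 0.52 without the arrays that stood apart. Of the 21 neighbours, 9 were among the probe sets altered in HD, beside 0.472% of the array. Neighbours were chosen by their likeness to altered genes, and nothing is read from that share.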

How the data were processed

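The authors deposited 1 table of normalized log2 intensities, 29214 probe sets on 77 arrays, with values from 2.51 to 14.63 and none missing. The scale was taken from this range. The sources used here do not give the background correction and normalization steps, and the number of arrays limits the precision. The platform annotation gave 1 gene symbol to 15310 of them, several to 323 and none to 13581.

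As in the study's methods, each exposed group was fitted with its own control in limma (version 3.58.1, R 4.3.3), q-values were computed from the p-values after Storey, and a probe set with q under 0.05 was called altered. Intervals are 95% intervals of that fit. The difference of the HD effects was fitted on all 4 groups. The fits were tested on simulated data with independent noise for each probe set. That noise lacks the shared variation and the arrays apart seen here, so the simulation does not vouch for the counts of altered probe sets. The members, gene lists and motifs were chosen with earlier results of these data known. The rule for named genes took the 7 members, their 3 nearest genes by r, list genes past the threshold, and close paralogs or partners, and Creb1, Dusp1, Atp6v1d, Atp6v1f, Rab6b, Atp6ap1, Pcyt2, Ptprc and the altered markers were named after their values were seen. An array stood apart where its median correlation with its group was below the median of that value minus 3 scaled median absolute deviations. Alternatives were array centring, quantile normalization, array weights, covariates, left-out arrays and a filter on probe sets with a mean under 6. Same-numbered replicates did not deviate together, so the numbers were not used as pairs.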

Additional observations from a re-analysis of the deposited data

How the results depend on the processing

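The members' median HD minus water difference was -0.56 to -0.45 under every alternative below, those that leave out 1 array included, and -0.23 with the leukocyte mean as a covariate, an alternative added after seeing the data. With that covariate Erc1 and Slc10a7 moved by more than 1 SD within groups. The members' median HD-recovery minus water-recovery difference was 0.02 to 0.14, and no alternative reversed a called value. The median r of the 21 pairs was 0.59 by Spearman's rho and 0.68 with medians centred.

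Counts of altered probe sets depended strongly on the processing, and the cause was not tested. In HD against water, 138 were altered (5 higher, 133 lower). The count was 63 with array medians centred, 352 with quantile normalization, 221 with all 4 groups in 1 fit (46 higher, 175 lower), 5178 with weighted arrays (2644 higher, 2534 lower), 1462 with the first component as a covariate (433 higher, 1029 lower), 8818 without the 10 arrays apart (5091 higher, 3727 lower) and 1356 with the leukocyte covariate (1129 higher, 227 lower). Leaving out 1 array gave 76 (water replicate 10) to 376 (HD replicate 14). In HD-recovery against water-recovery, 0 were altered, also without any 1 array, against 527 with weighted arrays, 47 with the first component, 3834 without the 10 arrays apart and 622 with the leukocyte covariate. For the difference of the HD effects the array-wide count of 0 became 9833 with weighted arrays, 356 with the first component and 16591 without the 10 arrays apart.

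Of the pathway genes, 1 was altered in HD against water, against 0 with medians centred, 2 with quantile normalization, 28 with weighted arrays, 9 with the first component, 43 without the 10 arrays apart, 14 with the leukocyte covariate and 0 to 2 without 1 array. After recovery the count of 0 became 4, 1, 18 and 6 with weights, the first component, without the 10 arrays apart and with the leukocyte covariate. For the difference of effects it became 47, 3 and 72 under the first 3 of these.

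With the replicate number as a block, 156 probe sets and 0 pathway genes were altered in HD against water, and 0 after recovery. The numbers did not pair the arrays: the correlation of same-numbered arrays ran from -0.58 to 0.65 (median 0.03) in HD and water, and an array correlated best with its own number in 2 of 19 cases, and in 4 of 18 after recovery.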
